A study of Rattus norvegicus with 27 samples.

Results

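Voltage-gated sodium channel genes were examined in punches of the cerebellar interpositus nucleus from 27 adult Long-Evans rats. The set held 8 genes of the 17321 in the deposited table, chosen by symbol: the alpha subunit genes Scn1a, Scn2a, Scn3a, Scn8a and Scn9a and the beta subunit genes Scn2b, Scn3b and Scn4b. All 8 were among the 12107 genes with enough counts to be tested. The animals were 5 females and 7 males reared normally (NT) and 7 females and 8 males given limited bedding (LB) from postnatal day 2 to day 9. All were taken at postnatal day 70, and the NT groups received no treatment. Each library came from 1 animal and is named by group and animal number.

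A voltage-gated sodium channel consists of a pore-forming alpha subunit joined to beta subunits, and it carries the inward current of the rising phase of the action potential. Scn1a, Scn2a, Scn3a, Scn8a and Scn9a encode Nav1.1, Nav1.2, Nav1.3, Nav1.6 and Nav1.7. The beta subunits are membrane proteins that alter channel gating and placement, and the beta 4 subunit encoded by Scn4b is known for its part in resurgent current in Purkinje and deep nuclear neurons. Nav1.6 is the main channel of the mature axon initial segment and node of Ranvier, while Nav1.2 is abundant in the unmyelinated axons of cerebellar granule cells.

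The libraries held 11836684 to 24169170 assigned counts. Eif2s3y, a Y-linked gene, had 516 to 1842 counts in the males and at most 3 in the females. No pair of libraries within a group was identical. The labelled tissue was checked against markers of the deep nuclei. Slc17a6, the vesicular glutamate transporter of excitatory deep nuclear neurons, lay between 0.28 and 380 CPM (counts scaled to a common library size by the TMM method, as parts in 1000000) in the NT males and between 0.475 and 74.9 CPM in the LB males. In the females it did not exceed 2.90 CPM with normal rearing and 3.26 CPM with limited bedding. Some other markers of the list were no lower on average in NT females. Slc6a5, the glycine transporter of inhibitory neurons, averaged 28.3 ± 10.3 CPM (NT females) against 27.8 ± 12.2 CPM (NT males), and Hapln4 averaged 268 ± 17.7 against 227 ± 48.6 CPM. The deep nucleus score, the mean over 10 marker genes of log2(CPM + 0.5) centred over the animals, ranged from -0.61 to -0.33 in NT females, -0.94 to 2.72 in NT males, -0.48 to -0.17 in LB females and -0.74 to 1.11 in LB males. These are bulk tissue punches, so fewer cells of a type and less RNA per cell cannot be told apart. Animal NT male 6112 had the highest deep nucleus score and the highest summed level of 4 motor neuron markers, 206 CPM, against at most 0.568 CPM in NT females.

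In the rn6 coordinates of the table, 4 of the alpha genes lay in 1 cluster on chromosome 3. Scn3a spanned 51532627 to 51643140 on the minus strand, Scn2a 51687910 to 51822008 on the plus strand, Scn1a 52388812 to 52510507 on the minus strand and Scn9a 52583953 to 52664209 on the minus strand. Scn8a lay apart, on chromosome 7 at 142575629 to 142683667, plus strand. The beta genes were all on the plus strand of chromosome 8. Scn3b spanned 44136496 to 44159011, Scn2b 49419003 to 49427550 and Scn4b 49441106 to 49456279, with 13556 bases between the end of Scn2b and the start of Scn4b. No annotated exon of the 8 genes shared a base with an exon of another gene in the table. The annotated exon length that the counts cover ran from 860 bases for Scn2b to 9299 bases for Scn9a, so levels are compared between genes only per kilobase (kb) of exon.

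Scn2b and Scn4b are neighbours that differed in how their RNA varied over the animals. The sequence before their annotated start sites is shown as a description, and a part of it in that variation was not tested. The RefSeq promoter table used here had entries for 6 of the 8 genes. The 250 bases before each start, from build GRCr8, plus strand, are given 5′ to 3′ with CG dinucleotides in capitals, at chr8:54322133-54322382 for Scn2b and chr8:54343623-54343872 for Scn4b.
Scn2b: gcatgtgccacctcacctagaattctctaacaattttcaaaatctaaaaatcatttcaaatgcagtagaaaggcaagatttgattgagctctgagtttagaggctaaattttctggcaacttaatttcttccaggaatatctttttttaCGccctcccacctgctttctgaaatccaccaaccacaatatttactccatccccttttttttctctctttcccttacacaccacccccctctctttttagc
Scn4b: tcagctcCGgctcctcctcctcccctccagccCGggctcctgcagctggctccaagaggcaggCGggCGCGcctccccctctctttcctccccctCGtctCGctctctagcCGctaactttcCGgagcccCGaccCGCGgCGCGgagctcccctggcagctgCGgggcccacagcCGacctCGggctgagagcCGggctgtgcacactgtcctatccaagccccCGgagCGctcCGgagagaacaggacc
The Scn2b stretch held 1 CG dinucleotide and 38.8% G and C, while that of Scn4b held 21 and 71.6%. The median of all 33469 promoters of this length was 5 CG dinucleotides. Scn8a had the most of the 6, with 53, more than 99.98% of all promoters, and Scn2a, Scn3a and Scn9a had 4, 4 and 5. A GC box, searched as GGGCGG on both strands, occurred 6 times before Scn8a and in none of the other 5, and in 30.5% of all promoters. Neither TATAAA nor CCAAT, on either strand, was found before any of the 6 genes, compared with 12.9% and 34.0% of all promoters.

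Scn2a RNA was by far the most abundant alpha subunit transcript. Its level per length was 107 ± 18.8 CPM per kb (SD, n = 27), 6.86 times the mean of Scn8a, and it was above Scn8a in 27 of 27 animals. Scn8a followed at 15.6 ± 6.54 CPM per kb, then Scn3a at 6.96 ± 1.98 and Scn1a at 4.31 ± 2.43. The neighbours in this order overlapped, with Scn8a above Scn3a in 22 of 27 animals and Scn3a above Scn1a in 20 of 27. Scn9a was lowest at 0.389 ± 0.246 CPM per kb and lay below Scn1a in every animal.

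Expressed as a share of the 5 alpha genes per length, Scn2a made up 79.6 ± 5.54% (n = 27), Scn8a 11.6 ± 4.20%, Scn3a 5.27 ± 1.48%, Scn1a 3.28 ± 2.14% and Scn9a 0.318 ± 0.313%. The Scn2a share was 76.2 ± 1.70% in NT females, 78.1 ± 7.38% in NT males, 79.1 ± 5.66% in LB females and 83.4 ± 3.30% in LB males. NT male 6112 had the lowest Scn2a share, 64.5%, and the highest share of Scn1a, 11.1%, and of Scn9a, 1.80%. The group ranges of the Scn2a share overlapped throughout.

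Among the 3 beta genes, Scn2b had the highest mean level per length, at 80.8 ± 57.3 CPM per kb (SD, n = 27), followed by Scn4b at 13.8 ± 4.68 and Scn3b at 7.63 ± 9.46. Scn2b exceeded Scn4b in 26 of 27 animals, and Scn4b exceeded Scn3b in 22 of 27. Of the 3 genes together per length, Scn2b made up 89.3 ± 1.00% in NT females, 64.9 ± 13.3% in NT males, 81.2 ± 8.28% in LB females and 67.6 ± 13.4% in LB males. Its share was 87.6% to 90.04% in NT females and 42.2% to 84.01% in NT males, with no overlap. NT male 3111 had the lowest Scn2b share and the highest Scn4b share, 54.4%. The Scn3b share was at most 1.88% in NT females, and it was 20.7%, 24.8% and 29.6% in NT males 6112, 3113 and 6111.

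**Figure D1:**
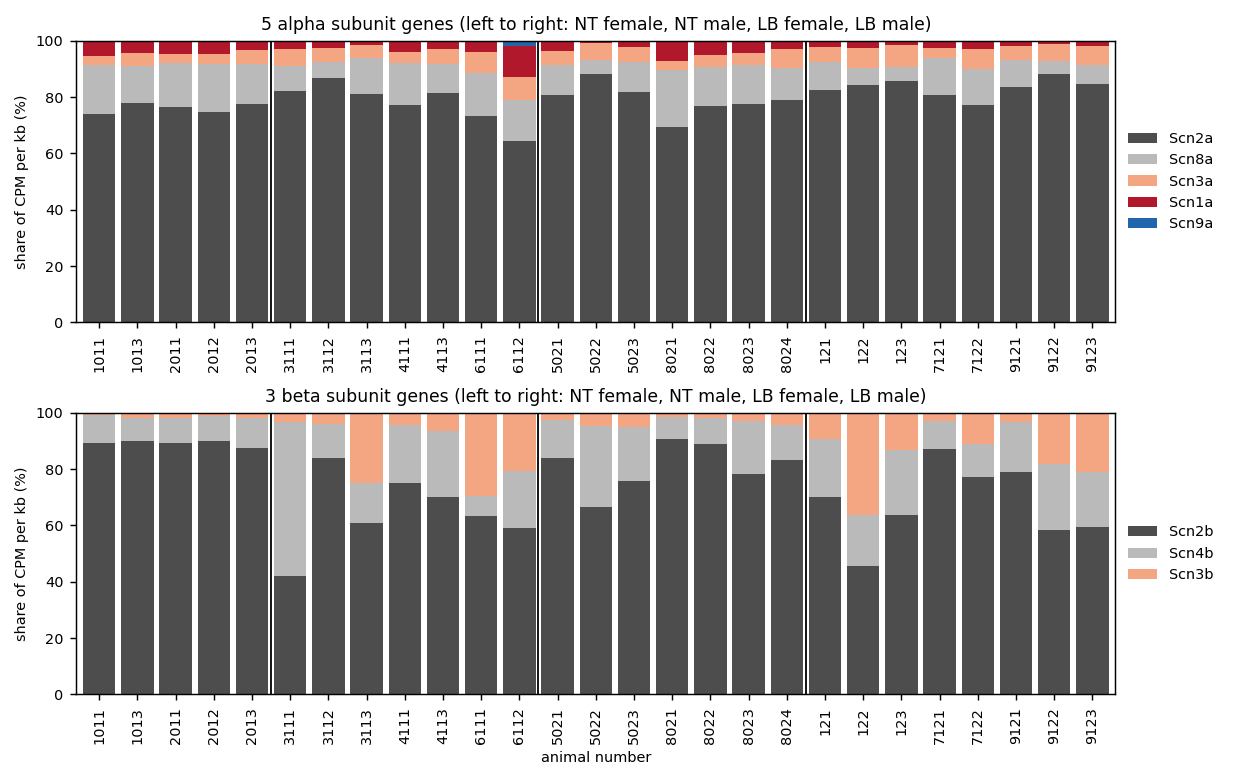
Stacked bars give each animal's share (%) of CPM per kb over 5 alpha subunit genes (upper panel) and 3 beta subunit genes (lower panel), with black lines between the groups. Scn2a fills 64.5% to 88.3% of every upper bar, and Scn2b 42.2% to 90.7% of every lower bar.

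The comparison of NT males with NT females addressed the sex difference without early stress. The beta subunit genes Scn2b and Scn3b differed, in opposite directions, and none of the 5 alpha genes passed the threshold. Scn2b was 2.61-fold lower in males and Scn3b was 6.01-fold higher. Over all genes 15.2% passed in this comparison, 10.1% higher and 5.08% lower in males, so 2 of 8 is read against a high background. With animal numbers that share all but the last digit as a random block, neither call held (adjusted p = 0.0828 for Scn2b and 0.231 for Scn3b), and 2 of all genes passed. The median log2 fold change of the 8 genes was -0.06 and that of all genes 0.03.

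The level of Scn2b in NT females was 136, 112, 135, 155 and 97.4 CPM in animals 1011, 1013, 2011, 2012 and 2013. In NT males it ranged from 14.7 to 71.4 CPM with a median of 53.1. All 7 NT males lay below all 5 NT females. The log2 fold change in edgeR's quasi-likelihood test was -1.39 ± 0.40 (SE), with an adjusted p of 0.0248 and a 95% interval of -2.21 to -0.56. Leaving out NT female 1011, 2011 or 2012 in turn gave adjusted p of 0.0572, 0.0545 and 0.0604.

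For Scn3b, NT females had 6.17, 10.6, 11.5, 8.96 and 9.34 CPM in the same order of animals. The NT males fell apart. Animals 3113, 6111 and 6112 had 97.9, 139 and 113 CPM, while 3111, 3112, 4111 and 4113 had 5.38, 14.8, 8.89 and 12.7 CPM. Of the 7 males 5 lay above all NT females, and 3111 lay below them all. The log2 fold change was 2.59 ± 0.70 (SE), with an edgeR adjusted p of 0.0199 and a 95% interval of 1.15 to 4.03. Without NT female 1011 the adjusted p was 0.0567, and neither Scn2b nor Scn3b then passed.

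NT males 3113 and 6111, high in Scn3b, also scored high on forebrain marker genes, while 6112, likewise high in Scn3b, scored far lower. The forebrain score, built like the deep nucleus score from 5 marker genes that include Neurod6, Drd2, Ppp1r1b and Tbr1, was 1.87 and 2.06 in NT males 3113 and 6111, 0.02 in 6112, and between -0.71 and -0.37 in the other 4 NT males. In NT females it ranged from -0.66 to -0.11. All 5 markers were detected in every group, and their summed level was 276 to 318 CPM in NT females and 205 to 514 CPM in NT males. Of the 5 markers 1 passed between NT males and NT females. Neurod6 and Ppp1r1b carried most of the sum in every group. They averaged 66.0 ± 9.61 and 226 ± 16.4 CPM in NT females against 77.6 ± 33.2 and 203 ± 33.7 CPM in NT males. Tbr1, a transcription factor gene of glutamatergic neurons, ranged from 1.29 to 4.33 CPM in NT females and from 2.03 to 163 CPM in NT males. With the forebrain score as a covariate, Scn3b had a log2 fold change of 1.38 and an adjusted p of 0.0560. Without the 4 animals that scored above 1 the values were 1.70 and 0.0646.

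**Figure D2:**
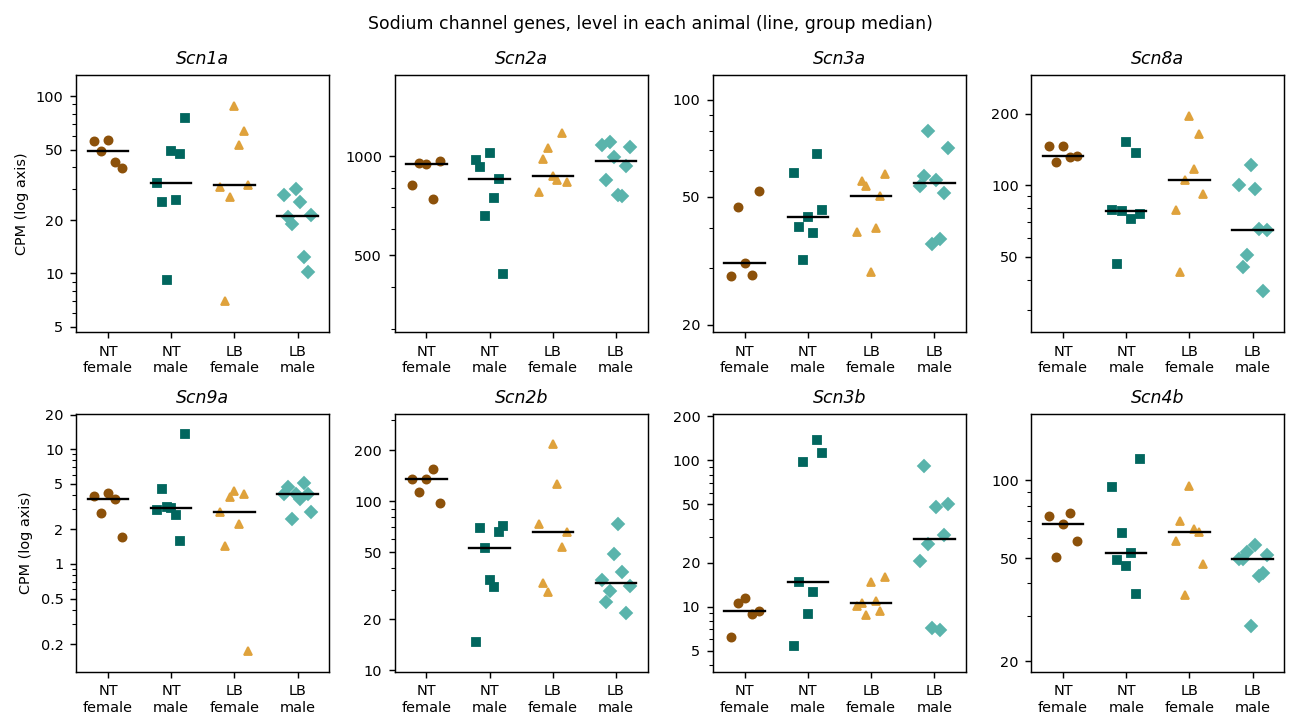
Each point is 1 animal's level (CPM, log axis) of the named gene, and the black line is the group median. All 7 NT males lie below the 5 NT females for Scn2b, and 3 NT males and several LB males stand above all females for Scn3b.

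The alpha genes did not pass the threshold between NT males and NT females. Scn8a was 126 to 147 CPM in NT females and 46.7 to 153 CPM in NT males, with 5 of 7 males below all females and 1 above them. The log2 fold change of Scn8a was -0.58 ± 0.31 (edgeR adjusted p = 0.196). Scn1a was 39.2 to 56.8 CPM in NT females and 9.16 to 75.4 CPM in NT males, and the log2 fold change was -0.37 ± 0.42. Scn2a, at 743 to 964 CPM in NT females and 438 to 1020 CPM in NT males, had a log2 fold change of -0.14 with a 95% interval of -0.47 to 0.18. Scn3a, most abundant in the fetal brain, was 28.4 to 51.9 CPM in NT females and 31.8 to 67.8 CPM in NT males.

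Scn9a and Scn4b overlapped widely between these groups. Scn9a, best known from peripheral sensory neurons, was 1.70 to 4.19 CPM in NT females and 1.58 to 13.6 CPM in NT males, with the upper value from animal 6112. Scn4b was 50.7 to 75.2 CPM in NT females and 36.5 to 121 CPM in NT males. The log2 fold change of Scn4b was 0.03, with a 95% interval of -0.47 to 0.52, and it went below 0 with library size alone as the scaling (-0.036).

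Among LB animals, no member passed the threshold between males and females. In this comparison 0.248% of all genes passed. At an unadjusted p under 0.05 in edgeR, 4 of the 8 differed, namely Scn1a, Scn8a, Scn2b and Scn3b, as did 2053 of the 12107 genes tested. DESeq2 called 1, Scn2b, with an adjusted p of 0.0336, where it called 408 of the 12107 genes. Limma-voom called 0 of the members and 28 of all genes.

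Scn2b ranged from 29.0 to 218 CPM in LB females (median 65.5) and from 21.9 to 73.5 CPM in LB males (median 32.8). The highest LB females were 8021 and 8022, at 218 and 126 CPM, and only these 2 exceeded all LB males, while 2 of 8 LB males lay below all LB females. The log2 fold change was -1.18 ± 0.36 (edgeR adjusted p = 0.113). Scn1a spread over 6.97 to 88.6 CPM in LB females and 10.2 to 30.04 CPM in LB males, a log2 fold change of -1.05 ± 0.37 (adjusted p = 0.159). LB female 5022 held the lowest Scn1a value of all animals, and without it Scn1a and Scn2b had edgeR adjusted p of 0.0319 and 0.0339.

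Scn3b lay between 8.76 and 15.97 CPM in LB females. In LB males it ranged from 6.88 to 91.3 CPM, with 6 of 8 above all LB females and 2 below them. Its log2 fold change was 1.61 ± 0.59 (edgeR adjusted p = 0.167). The LB males with the highest Scn3b, 122, 9123 and 7122 at 91.3, 50.3 and 47.9 CPM, had forebrain scores of 1.70, 0.83 and 1.33. LB males 9122 and 121, at 30.7 and 20.5 CPM and above all LB females, had scores of -0.48 and -0.23. LB females did not exceed -0.09 on that score.

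Whether the sex contrast differed between NT and LB animals was tested as an interaction, in which 0% of all genes passed. By edgeR the interaction of Scn2b was 0.21 with a 95% interval of -0.90 to 1.32, and that of Scn3b was -0.98 with an interval of -2.75 to 0.80. At an unadjusted p under 0.05, 0 of the 8 genes and 570 of all genes differed, and DESeq2 and limma-voom called 0 of all genes.

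With rearing averaged over, all males against all females, 3 of the 8 genes passed where 29.3% of all genes did, 16.9% higher and 12.4% lower in males. Scn2b was lower in males by a log2 fold change of -1.28 ± 0.27 (edgeR adjusted p = 0.00227). Scn8a was lower by -0.61 ± 0.21 (adjusted p = 0.0302), and Scn3b was higher by 2.10 ± 0.46 (adjusted p = 0.00266). Scn1a had a log2 fold change of -0.71 ± 0.28 and missed the threshold (adjusted p = 0.0560), while DESeq2 gave 0.0331. The Scn8a call rested on the females 1011, 8021 and 8023, since leaving out each in turn gave an adjusted p of 0.0502, 0.0725 and 0.0526.

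**Figure D3:**
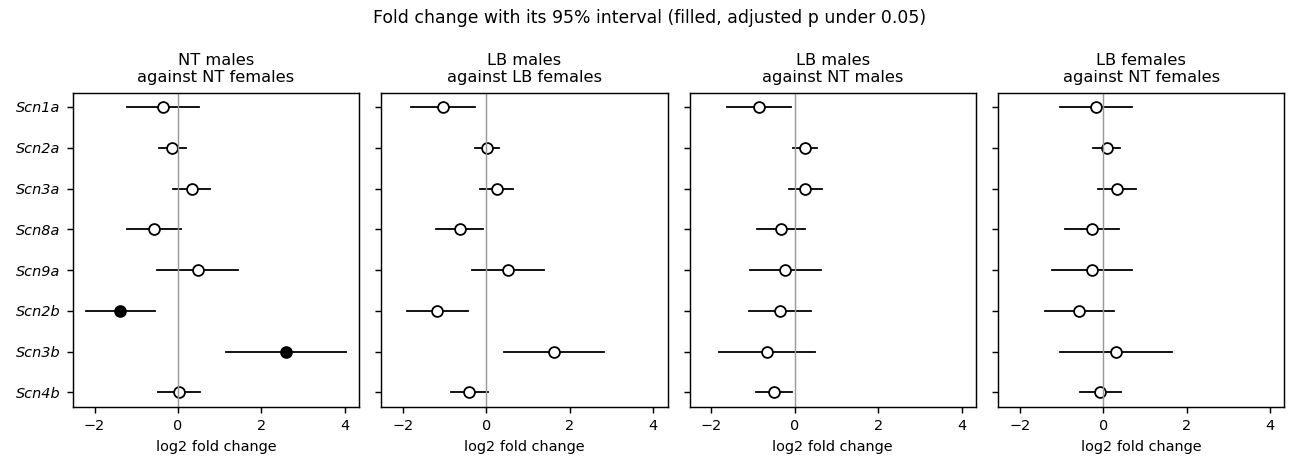
Points give the log2 fold change of each gene in 4 comparisons with the 95% interval as a line, and filled points mark an edgeR adjusted p under 0.05. Filled points occur in the comparison of NT males with NT females only, for Scn2b at -1.39 and Scn3b at 2.59.

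Scn1a, Scn8a and Scn2b varied together over the 27 animals. The Pearson r of log2(CPM + 0.5) was 0.78 for Scn1a with Scn8a, 0.64 for Scn8a with Scn2b and 0.62 for Scn1a with Scn2b. Scn2b and its neighbour Scn4b had an r of 0.33. The lowest r of any pair was -0.61, for Scn3a with Scn2b. Points from the same library share depth and tissue make-up, and these values are descriptions.

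The 3 genes also varied with an index that sets long transcripts against short ones. This long minus short index is the median centred log2(CPM + 0.5) of 1076 genes with more than 5000 annotated bases minus that of 1153 genes with fewer than 1000, sodium channel genes left out. NT females ranged from 0.30 to 0.62, NT males from -0.51 to 0.33, LB females from -1.02 to 0.88 and LB males from -0.66 to 0.14. The index was chosen after the data were seen. Over 27 animals its Pearson r was 0.92 with Scn1a, 0.84 with Scn8a and 0.79 with Scn2b, and Spearman's rho was 0.91, 0.81 and 0.80. Each permutation p was 1e-05, the smallest that 100000 permutations can give, and the adjusted p over 8 relations was 2.67e-05. These p-values are read as descriptions, because the index was chosen late and the permutations moved animals across the groups. No share of all genes that follow the index is given here. Once group means were removed, r was 0.91 with Scn1a, 0.78 with Scn8a and 0.68 with Scn2b. Without LB females 5022 and 8021, the farthest from the median, r was 0.88, 0.80 and 0.78. The members' annotated exon lengths did not order these values, and a part of transcript length in them was not tested. Scn1a, Scn8a and Scn2b have 8397, 6439 and 860 bases. Scn2a (8371 bases), Scn3a (6822 bases) and Scn9a (9299 bases) had r of -0.11, -0.52 and 0.17.

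Within groups these relations varied. For Scn1a the r with the index was 0.87 in NT males, 0.98 in LB females and 0.73 in LB males, and for Scn8a it was 0.41, 0.95 and 0.93. For Scn2b it was 0.47, 0.81 and 0.65. The NT females, with 5 animals, were too few. Scn3a had a negative relation (r = -0.52, rho = -0.50, permutation p = 0.00576 and 0.00828, adjusted p = 0.0115 and 0.0166). Its r was 0.43 in NT males, -0.71 in LB females and -0.33 once group means were removed. The other 4 genes had r between -0.24 and 0.23.

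With the index as a covariate, the log2 fold change of Scn2b between NT males and NT females was -0.78 (adjusted p = 0.124). For all males against all females, Scn8a moved to -0.08 (adjusted p = 0.736) and Scn1a turned to 0.20 (adjusted p = 0.373), while Scn3b stayed past the threshold. The part of the index in these differences was not tested beyond these fits.

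**Figure D4:**
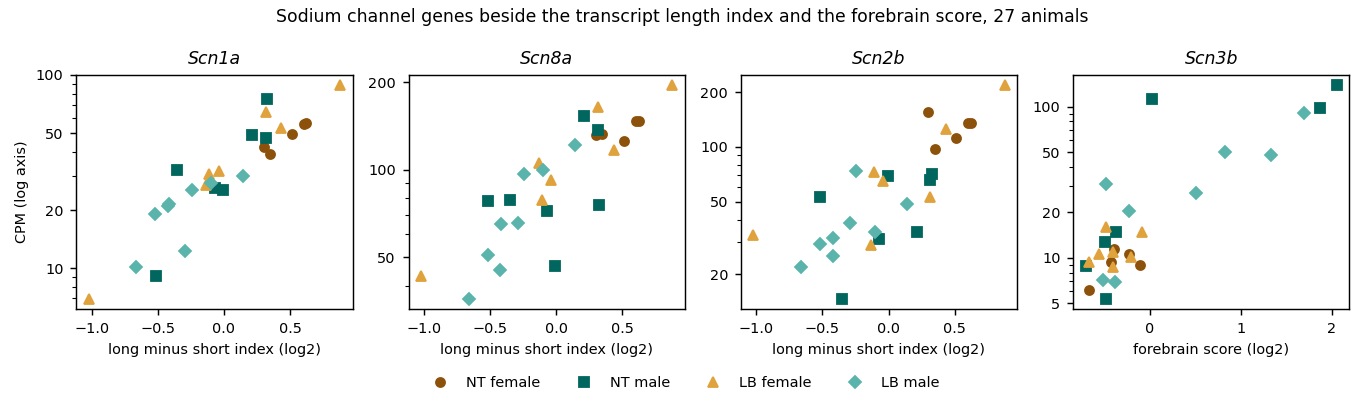
Each point is 1 animal. The level (CPM, log axis) of Scn1a, Scn8a and Scn2b is plotted against the long minus short transcript index, and that of Scn3b against the forebrain score, both on a log2 scale. Scn1a climbs from 6.97 CPM at an index of -1.02 to 88.6 CPM at 0.88, and NT male 6112 has 113 CPM of Scn3b at a forebrain score of 0.02.

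Limited bedding gave no change that passed the threshold in any member. Between LB and NT males 0% of all genes passed, and between LB and NT females 0.00826%, as also over all animals. In males, edgeR gave 1211 genes at an unadjusted p under 0.05, DESeq2 called 3 and limma-voom 0. Of the 8 sodium channel genes DESeq2 and limma-voom called 0 in each of these comparisons.

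In males 2 of the 8 had an unadjusted edgeR p under 0.05. Scn1a was 9.16 to 75.4 CPM in NT males (median 32.3) and 10.2 to 30.04 CPM in LB males (median 21.2). Its log2 fold change was -0.86 with a 95% interval of -1.62 to -0.09 (adjusted p = 0.490). Scn4b was 36.5 to 121 CPM in NT males (median 52.6) and 27.3 to 56.1 CPM in LB males (median 49.7). Its log2 fold change was -0.50 with an interval of -0.94 to -0.06 (adjusted p = 0.481). Both ranges overlapped.

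In females 0 of the 8 had an unadjusted edgeR p under 0.05, where 961 of the 12107 genes tested did. With so few members, this count is not read as a trait of them. The log2 fold changes ran from -0.57 for Scn2b to 0.33 for Scn3a. The 95% interval of Scn2a, -0.25 to 0.41, was the narrowest, and that of Scn3b, -1.04 to 1.65, was the widest. For Scn2b 5 of 7 LB females lay below all NT females and LB female 8021 lay above them, and for Scn8a 5 lay below and 2 above. LB females thus spread beyond NT females on both sides for these genes.

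Ratios between subunits within an animal were compared between groups in 12 two-sided exact permutation tests, of which 0 passed after adjustment and 2 had an unadjusted p under 0.05. Scn4b per length was 0.104 ± 0.0114 of Scn2b in NT females (n = 5) and 0.391 ± 0.406 in NT males (n = 7), and 6 of 7 males lay above all females. On the log2 scale the difference was 1.47 (exact permutation p = 0.00884, adjusted p = 0.106). Scn1a per length was 0.0548 ± 0.0532 of Scn2a in NT males and 0.0222 ± 0.00751 in LB males (n = 8), a log2 difference of -0.97 (exact permutation p = 0.0362, adjusted p = 0.217). Without NT male 3113 that ratio had an adjusted p of 0.0320. Between LB males and LB females the same ratio had an adjusted p of 0.219, and 0.0320 without LB female 5022. The ratio of Scn8a to Scn2a had an adjusted p of 0.219 to 0.241 in the 4 comparisons.

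The relation of the members to deep nucleus genes was examined over the 27 animals with the deep nucleus score and, for contrast, a granule cell score of 10 markers. Of 16 relations 7 passed at an adjusted permutation p under 0.05. No share of all genes related to these scores is given here, so this count is not read as a trait of the members. The permutations moved animals freely across the 4 groups. With the deep nucleus score these were Scn2a (r = -0.59, adjusted p = 0.0240), Scn3b (r = 0.55, adjusted p = 0.0240) and Scn4b (r = 0.50, adjusted p = 0.0240). Spearman's rho was -0.21, 0.65 and 0.30, with adjusted permutation p of 0.440, 0.00248 and 0.241. Without NT males 3111 and 6112, the farthest from the median, r was -0.31, 0.68 and 0.05 (permutation p = 0.139, 0.00033 and 0.821). Without NT male 6112 alone the r of Scn2a was -0.20 (adjusted permutation p = 0.493), and Scn2a still passed without 3111 alone. Scn4b lost its call without 3111 or 6112 alone, with r of 0.43 and 0.25 (adjusted permutation p = 0.0882 and 0.363). The relation of Scn3b held without both animals, but without NT male 6112 alone its r was 0.42 (adjusted permutation p = 0.0851).

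After group means were removed, Scn2a had r = -0.54 with the deep nucleus score (permutation p = 0.00682). Scn3b then had r = 0.42 (permutation p = 0.0289). Scn4b then had r = 0.69 (permutation p = 9e-05). Within groups its r was 0.81 in NT males, 0.76 in LB females and 0.70 in LB males. NT males 6112 and 3111, with deep nucleus scores of 2.72 and 1.44, had the highest Scn4b levels in their group, 121 and 94.4 CPM. Scn2a was lowest of all animals in NT male 6112, at 438 CPM, and its r within groups was -0.73, 0.12 and -0.22 in the same order. For Scn3b the within-group r was 0.29, 0.29 and 0.79. The remaining 5 genes had r between -0.23 and 0.41 with the deep nucleus score, and none passed.

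**Figure D5:**
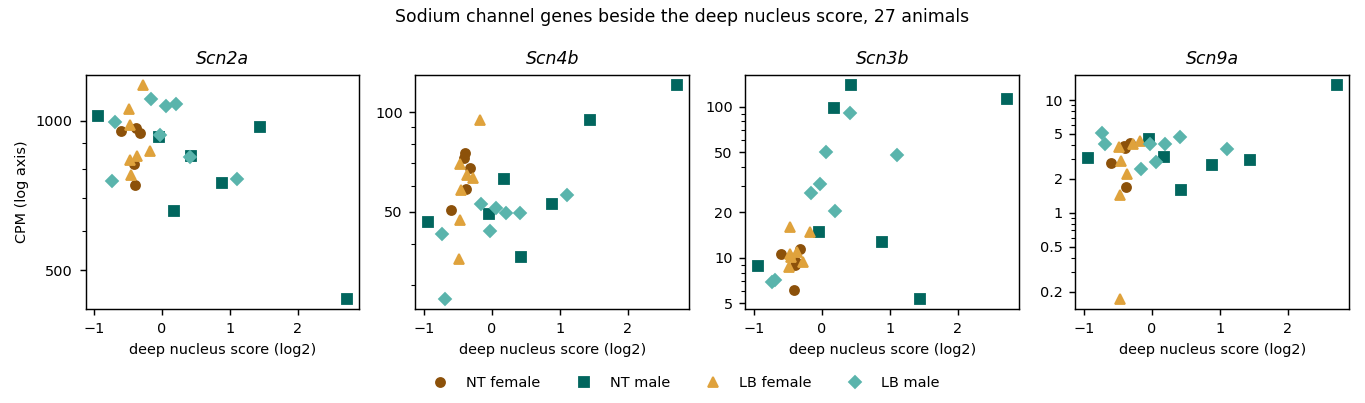
The level (CPM, log axis) of 4 genes in each animal is plotted against the deep nucleus score (log2 scale). NT male 6112, at a score of 2.72, has the lowest Scn2a (438 CPM) and the highest Scn4b (121 CPM) and Scn9a (13.6 CPM).

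With the granule cell score, Scn3b had an r of -0.70 (adjusted permutation p = 0.00176), Scn2b 0.51, Scn2a 0.51 and Scn8a 0.49 (each adjusted p = 0.0240). Spearman's rank correlation was -0.57, 0.68, 0.12 and 0.61, with adjusted permutation p of 0.00932, 0.00248, 0.674 and 0.00416. Without NT males 3113 and 6112 the r of Scn2a was -0.02, and those of Scn3b, Scn2b and Scn8a were -0.56, 0.76 and 0.58. Scn1a and Scn3a passed by rank alone, with rho of 0.50 and -0.54 (adjusted permutation p = 0.0209 and 0.0133), and their r was 0.29 and -0.35 over all animals and 0.50 and -0.64 without those 2. The granule cell score was 0.39 to 0.49 in NT females and -1.28 to 0.16 in NT males, with no overlap. Of the 10 granule markers 5 were lower in NT males and 0 higher, and of the 10 deep nucleus markers 5 were higher and 0 lower, where 15.2% of all genes passed. In the same contrast 6 of 6 oligodendrocyte, 3 of 4 oligodendrocyte precursor and 3 of 5 microglia markers were higher, and 4 of 7 Purkinje cell markers were lower. Of the tested markers 2 of 5 for meninges, 2 of 2 for motor neurons and 1 of 2 for monoamine neurons were also higher. Of 5 astrocyte markers 1 was higher and 1 lower. Their part in the sex differences was not tested beyond a fit with a meningeal score, built like the others, as a covariate. After group means were removed the r of Scn2b was 0.26 (permutation p = 0.199). The part of granule and deep nuclear tissue in the sex differences was not tested beyond a fit with the deep nucleus minus granule score as a covariate, in which Scn2b had a log2 fold change of -1.47 (adjusted p = 0.643) and Scn3b 0.86 (adjusted p = 0.725) between NT males and NT females. Only 3 of all genes passed in that fit.

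The genes most like each member were sought among all tested genes by Pearson r over 27 animals, as a description. Scn2b was closest to Mgat3 (0.98), Dpp6 (0.98), which encodes an auxiliary subunit of potassium channels, and Hdlbp (0.97). Scn8a was closest to Tsc1 (0.96), Cacna1e (0.96), a voltage-gated calcium channel gene, and Grk3 (0.96). Scn1a was closest to Usp45, Edem3 and Pdxdc1, each at 0.95. Scn3b was closest to Pnma8a (0.97), Fam163b (0.96) and Pdyn (0.96), which encodes the opioid peptide precursor prodynorphin. Scn4b was closest to Taco1 (0.83), Sv2c (0.83), a synaptic vesicle protein gene, and Fgfr3 (0.76). Scn2a was closest to Slc16a6 (0.89), Usp42 (0.84) and Ncor1 (0.84), Scn3a to Riok1, Zc3h15 and Nucks1, each at 0.76, and Scn9a to Ssmem1 (0.67), Vav1 (0.60) and Dhtkd1 (0.58).

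Of the other sodium channel genes, Nalcn, the sodium leak channel gene, was 149 ± 18.6 CPM in NT females (n = 5) and 131 ± 37.1 CPM in NT males (n = 7). Scn4a, the skeletal muscle channel, was 2.68 ± 0.352 and 1.38 ± 0.808 CPM. Neither passed between NT males and NT females. Scn7a had 0 to 52 counts, and Scn10a and Scn11a, of sensory neurons, had at most 4 and 2 counts, so these 3 were not tested. A library with 3 counts, the limit below which a gene was treated as not detected, corresponds to 0.124 to 0.253 CPM, counting error alone considered. Scn9a had 3 counts in LB female 8024.

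Of 11 tested genes of channel partners, 2 were lower in NT males than in NT females and 0 higher, where 5.08% of all genes were lower and 10.1% higher. Fgf14, an intracellular factor that binds the sodium channel tail, had a log2 fold change of -1.07 ± 0.33 (edgeR adjusted p = 0.0322). Nedd4l, a ubiquitin ligase of sodium channels, had -0.83 ± 0.24 (adjusted p = 0.0253). The median over the 11 was -0.22. Ank3, the ankyrin that anchors channels at the axon initial segment, had -0.22 (adjusted p = 0.422). None of the 11 passed between LB males and LB females, while 3 had an unadjusted edgeR p under 0.05, as did 2053 of the 12107 genes tested.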

How the data were processed

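Messenger RNA libraries (KAPA mRNA HyperPrep) were made from interpositus punches of 27 rats. The submitters' processing notes name STAR 2.5.2b, featureCounts of Subread 1.5.1 and the rn6 build. The authors deposited raw counts per gene with exon coordinates and lengths, unnormalized, and each column was matched to its animal by title. Groups came from the labels. The members and gene lists were chosen with earlier results of these data known.

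Genes passing filterByExpr (12107) were fitted across all 4 groups with edgeR 4.0.16 (TMM, quasi-likelihood test, no covariates, R 4.3.3), with Benjamini-Hochberg adjustment over all genes tested and a threshold of 0.05. Fold changes carry edgeR's prior count of 0.125. DESeq2 1.42.0 and limma 3.58.1 (voom) served as alternatives. Levels are CPM on TMM-scaled library sizes, divided by kilobases of annotated exon where genes are compared. That length decides the order of genes, and for Scn2b (860 bases) it is short. Ratios were tested by exact permutation and relations by 100000 permutations. The scripts were tested on simulated data. The named genes were the 8 members, listed genes that passed between NT males and NT females, the other sodium channel genes, and the 3 genes most like each member. Some listed genes are not reported here. Ank3 was named after its values were seen. The labels give 1 library per animal. Animal numbers that share all but the last digit fall within 1 sex and treatment, in 10 sets over the 4 groups, and these sets were used as a random block in an alternative fit. All pairs of libraries within a group differed beyond sampling noise (chi-square per degree of freedom of at least 8.45). The strand setting of the counting was not given in the sources used here.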

Additional observations from a re-analysis of the deposited data

Results flagged for a closer look

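Within the 4 groups the 8 genes gave 32 sets of values, of which chance puts about 1 in 20 past the limit for a single animal far from its group, and 2 were past it. Scn9a in NT male 6112 was 13.6 CPM, and the next highest NT male had 4.54 CPM. Scn4b in LB male 7121 was 27.3 CPM, and the next lowest LB male had 42.8 CPM. The same NT male had the highest deep nucleus score of all animals.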

How the results depend on the processing

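For the sex contrast of normally reared animals, 2 members passed the threshold. The count was 1 with limma-voom, with only the groups compared, with the forebrain score or the long minus short index as a covariate, and without the 4 animals above a forebrain score of 1. Of all genes 1247, 1353, 1484, 977 and 1555 passed in these fits, in that order, and 1840 in the main fit. The member count was 0 with animal numbers grouped by all but their last digit as a random block and with the deep nucleus minus granule score or the meningeal score as a covariate, fits in which 2, 3 and 5 of all genes passed. Over all males and females the member count was 3, where 3546 of all genes passed. It was 4 with DESeq2 (4055 of all genes) or library size alone (3616) and 2 with the forebrain score (2486). It was 1 with the block (1029) or the index (1779), and 0 with the deep nucleus minus granule (6) or meningeal score (4). In LB animals it was 0, and 1 with DESeq2, where 30 and 408 of all genes passed. The forebrain and index settings were chosen after the data were seen. Leaving out 1 animal gave 0 to 2 between NT males and NT females, 0 to 2 in LB animals, 2 to 4 over all males and females, 0 to 1 of the ratio tests and 4 to 7 of the relations, and 0 in every fit for the LB against NT comparisons and the interaction.

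Scn2b lost its call in NT animals with the block (log2 fold change -1.51, adjusted p = 0.0828) and the meningeal score (-1.44, 0.160), folds no smaller than the reported one. Scn3b lost its call with limma-voom (1.68, 0.135), the block (1.73, 0.231), the meningeal score (2.77, 0.126) and only the groups compared (2.59, 0.0507). The cause was not tested. Of 539 alternative log2 fold changes outside the fits without 1 animal, 22 changed sign, all of values that had not passed. Between NT males and NT females these were, with the index, Scn1a (0.46), with the deep nucleus minus granule score, Scn2a (0.16), Scn9a (-0.31) and Scn4b (-0.66), and Scn4b with limma-voom (-0.075), library size alone (-0.036) and the block (-0.078). Between LB males and LB females they were Scn2a with library size alone (-0.016) and the index (-0.00099), and Scn8a with the meningeal score (0.021). Over all males and females they were Scn1a with the index (0.20) and Scn2a with the deep nucleus minus granule (0.14) and meningeal score (0.089). Between LB and NT males they were Scn9a with limma-voom (0.047), the block (0.037), the deep nucleus minus granule score (0.28) and the index (0.11), Scn2b with the index (0.014) and Scn3b with the deep nucleus minus granule score (0.024). Between LB and NT females they were Scn1a (0.38), Scn8a (0.13) and Scn9a (0.061) with the index. Of the relations, those of Scn1a with the deep nucleus score (-0.17) and of Scn9a (0.10) and Scn4b (0.21) with the granule score turned without NT males 3111 and 6112, the farthest on the deep nucleus score, and that of Scn2b with the deep nucleus score (0.10) once group means were removed. Leaving out NT males 3113 and 6112, the farthest on the granule cell score, turned the relations of Scn2a (-0.02), Scn9a (0.11) and Scn4b (0.10) with that score. Of these, Scn2a had passed over all animals. Without 1 animal, values that changed sign ranged as follows. Between NT males and NT females Scn9a ran from -0.13 to 0.59 and Scn4b from -0.19 to 0.12. Scn2a ran from -0.027 to 0.077 between LB males and LB females, and Scn9a from -0.38 to 0.37 between LB and NT males. Between LB and NT females Scn1a ran from -0.43 to 0.017 and Scn4b from -0.20 to 0.031. The ratio of Scn4b to Scn2b between LB and NT males ran from -0.35 to 0.23. The r with the deep nucleus score ran from -0.13 to 0.15 for Scn1a, and that with the granule score from -0.32 to 0.091 for Scn9a and from -0.34 to 0.047 for Scn4b.

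Scn9a, the member with the fewest counts, fell below 10 counts in LB female 8024 and was not tested under the filter of 10 counts in every animal. No paired analysis was possible because the labels give the groups no shared replicate numbers.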
